A study of Zea mays with 9 samples.

Results

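The genes described here are 5 transcription factor genes of the maize endosperm storage programme: opaque2 (Zm00001d018971), pbf1 (Zm00001d005100), nac128 (Zm00001d040189), nac130 (Zm00001d008403) and opaque11 (Zm00001d003677). The rule takes them by name and identifier and uses no measured value, though it was set with earlier results of these data known. They are 5 of 46430 identifiers counted. The deposited tables list identifiers alone, so each name rests on that choice. All 5 passed the filter on low counts and are among 23529 genes tested.

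The levels were measured in endosperm at 19 DAP (days after pollination), dissected from self-pollinated plants grown in the field. WT libraries came from B73, and the mutant libraries carried thk1_iso15 (-/-) or thk1_iso17 (-/-), both in the B73 inbred background, with 3 libraries per genotype. Titles of the WT libraries read B73. The labels do not say whether WT plants were sibs of the mutants, or how many kernels or plants made up a replicate. Any difference of line therefore cannot be told apart from an effect of thk1, and p-values measure the spread between these libraries. Mutants of thk1 (thick aleurone1) form more cell layers than usual in the aleurone, the outermost tissue of the endosperm.

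Cereal endosperm fills with storage protein and starch, and in maize the main storage proteins are the zeins. The opaque2 gene encodes a bZIP factor that activates zein genes, and its mutants have soft, opaque kernels. The pbf1 gene encodes a DOF factor that binds the prolamin box in zein promoters and can interact with the opaque2 protein. The paralogues nac128 and nac130 encode NAC factors that act redundantly on zein and starch synthesis genes. The opaque11 gene encodes a bHLH factor placed upstream of opaque2 and pbf1 in endosperm development.

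Gene counts per library ran from 21871601 to 76651742. A member had between 2265 and 94969 counts in a library, so counting error was at most 2.1% of a value and the spread between replicates was larger. Levels are given in CPM (counts divided by library size, with TMM factors that correct for differences in library composition), and compare libraries, not genes, since transcript lengths were not used. In whole endosperm, fewer cells that express a gene and less RNA per cell cannot be told apart. In thk1-iso15 replicate 3, genes took 52.9% of all entries and entries not uniquely aligned 27.0%, against 59.2% to 66.5% and 16.8% to 22.6% in the other 8 libraries. In thk1-iso17 replicate 3, 8.27% of entries were not aligned, against 1.62% to 2.54% elsewhere.

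Of the 5 factors, nac130 alone passed the edgeR test against WT, and it was lower in both alleles. Its thk1-iso15 call passed in 8 of 19 alternative settings, and neither call held when scaled by total gene counts. The other 4 did not pass the test in either allele. For pbf1 the mutant means were also lower, but 1 library of thk1-iso15 stood at the WT level. Mean levels of nac128 and opaque11 were above WT in thk1-iso15 and below it in thk1-iso17, though not below it when scaled by total gene counts, and opaque2 lay close to WT in thk1-iso17.

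**Figure D1:**
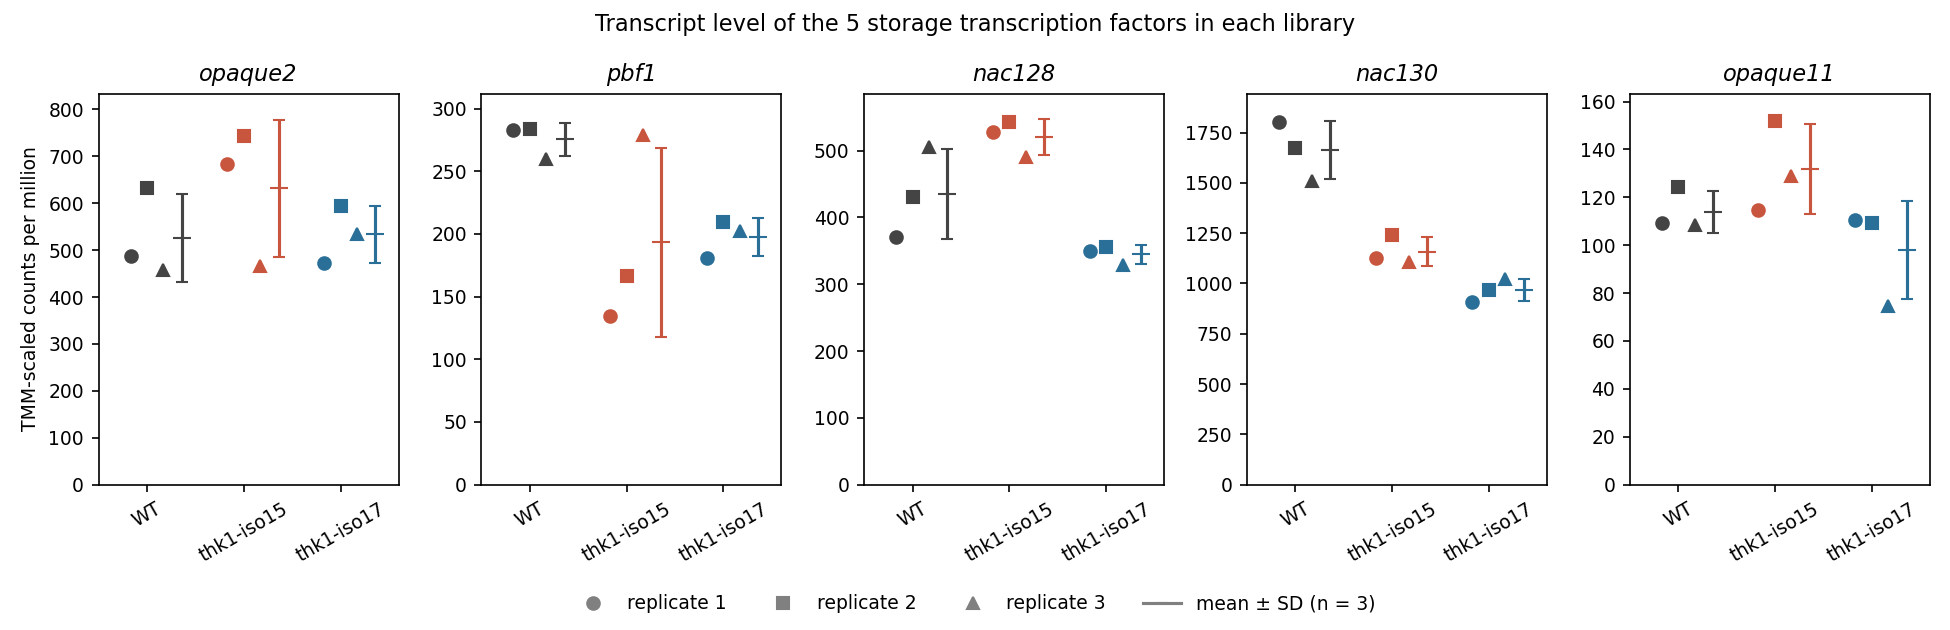
TMM-scaled CPM (y axis, from 0) of each factor in each of the 9 libraries. Points are libraries, with replicate numbers shown by shape, and bars are the mean ± SD of 3 libraries. All 6 mutant libraries lie below the 3 WT libraries for nac130 (at most 1240 against at least 1511 CPM), and 1 thk1-iso15 library stands at 279 CPM for pbf1.

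The NAC gene nac130 stood at 1800, 1674 and 1511 CPM in WT replicates 1, 2 and 3. In thk1-iso15 it stood at 1125, 1240 and 1109 CPM. The thk1-iso17 libraries stood at 910, 968 and 1024 CPM. With TMM factors the 3 groups did not overlap, with WT highest and thk1-iso17 lowest. In the order WT, thk1-iso15, thk1-iso17, group means were 1662 ± 145, 1158 ± 71.6 and 967 ± 57.1 CPM (SD, n = 3 each). In thk1-iso15 the gene fell to 0.697 of WT (log2 fold change -0.52, 95% interval -0.85 to -0.19, edgeR adjusted p = 0.0384). In thk1-iso17 it fell to 0.582 of WT (log2 fold change -0.78, 95% interval -1.11 to -0.45, edgeR adjusted p = 0.00862). With both alleles combined the log2 fold change was -0.65 (95% interval -0.93 to -0.37, edgeR adjusted p = 0.00612). Among all genes tested, 16.5% had a lower log2 fold change in thk1-iso15 and 7.52% in thk1-iso17. The alleles share their WT libraries, so the falls are not independent.

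One member in 5 was thus called lower in each allele, and 0 were called higher. Of all genes tested, 15.5% were called in thk1-iso15, with 6.82% called lower, while thk1-iso17 had 14.2% and 6.29%. For both alleles combined, 1 of 5 was called, against 21.0% of all genes, so the share of members called is near the background. The 6 mutant libraries were below the WT range in 1 member, and in 11.7% of all genes. The 5 members had a median log2 fold change of 0.21 for thk1-iso15 and -0.34 for thk1-iso17, against 0.01 and 0.02 over all genes tested.

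The thk1-iso15 call for nac130 stood close to the threshold. Its adjusted p ranged from 0.00152 to 0.305 over 19 alternatives, and 8 of them passed. Leaving out WT replicate 1, 2 or 3 gave 0.127, 0.0950 and 0.0583. Leaving out replicate 1, 2 or 3 of thk1-iso15 gave 0.107, 0.0842 and 0.0682. Without thk1-iso17 replicate 1, which enters through the shared estimate of spread, it was 0.0602. The thk1-iso17 call passed in 18 of 19 alternatives, including each of 9 with 1 library left out (adjusted p 0.00972 to 0.0481). The exception was scaling by total gene counts.

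Scaling mattered because the composition of WT and mutant libraries differed, with TMM factors of 0.785 to 0.926 in WT and 0.946 to 1.21 in the mutants. Leaving these factors out raised the mean scaling of the mutant libraries over WT, on the log2 scale, by 0.26 for thk1-iso15, 0.41 for thk1-iso17 and 0.34 for both combined, and fitted log2 fold changes moved up by about as much. As plain CPM of total gene counts, nac130 had a WT mean of 1423 ± 122, against 1193 ± 128 for thk1-iso15 and 1103 ± 125 for thk1-iso17 (SD, n = 3 each). The mutant libraries were still all under the WT range, the highest at 1293 and the lowest WT library at 1314. The alleles overlapped there, with 1049 to 1293 for thk1-iso15 and 999 to 1241 for thk1-iso17. On that scale the log2 fold changes of nac130 were -0.25 (thk1-iso15) and -0.37 (thk1-iso17) (edgeR adjusted p = 0.305 and 0.118). The direction of nac130 was thus the same on both scales, but its size was smaller and neither call held.

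**Figure D2:**
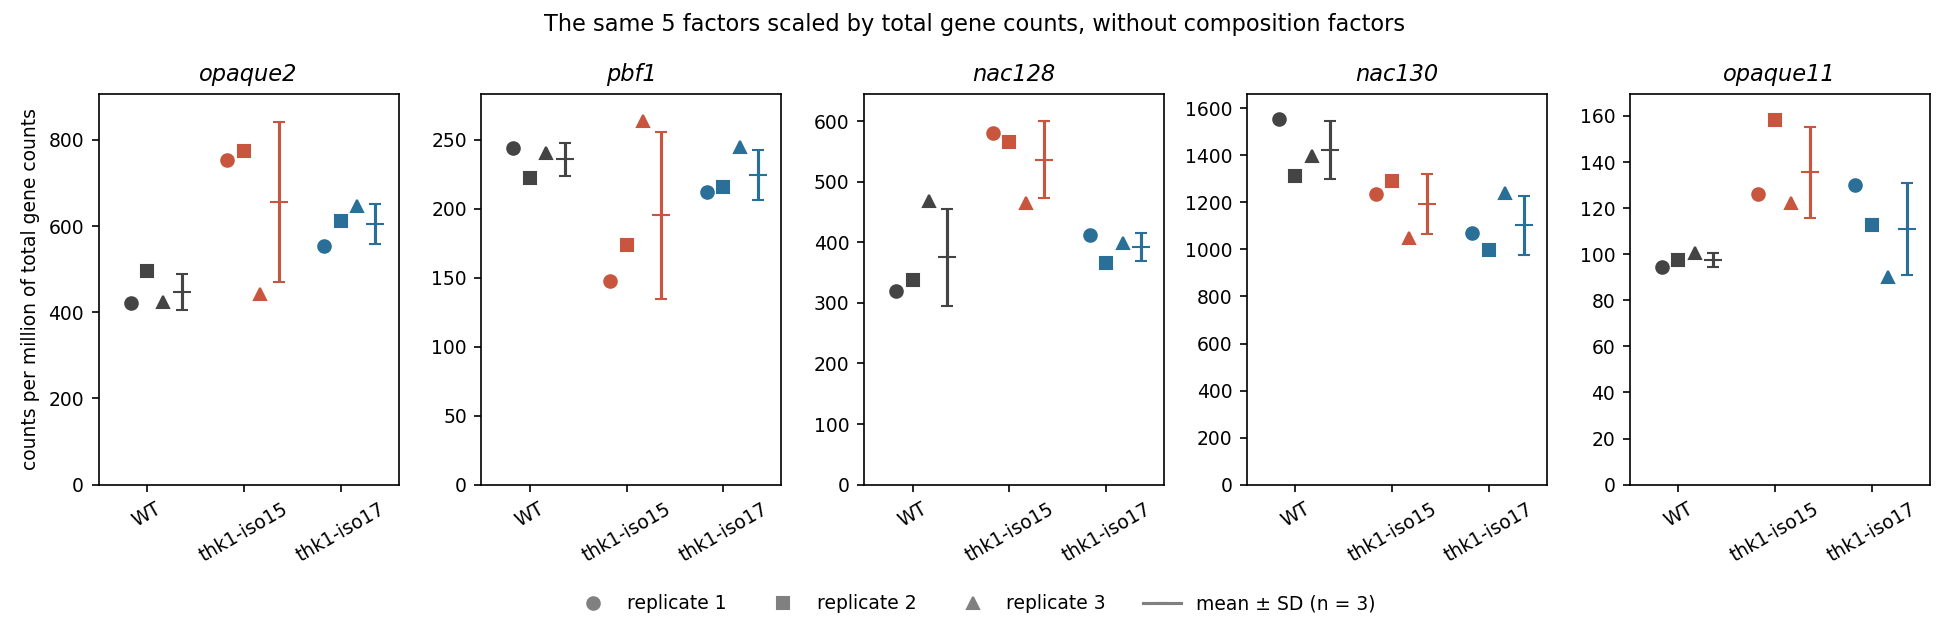
CPM of total gene counts (y axis, from 0), without composition factors, for the same 5 factors and 9 libraries. Points are libraries and bars are the mean ± SD of 3 libraries. The 6 mutant libraries remain below WT for nac130 (at most 1293 against at least 1314), while 5 of 6 mutant libraries lie above WT for opaque2 and opaque11.

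The paralogue nac128 did not follow nac130 in thk1-iso15. It stood at 370, 431 and 505 CPM in WT replicates 1, 2 and 3. In thk1-iso15 it stood at 528, 542 and 491 CPM, with 2 libraries above all of WT. In thk1-iso17 it stood at 350, 355 and 329 CPM, all below WT and below thk1-iso15. Means in the same order were 435 ± 67.4, 520 ± 26.6 and 345 ± 14.1 CPM (SD, n = 3 each). Against WT, thk1-iso15 had a log2 fold change of 0.26 (95% interval -0.07 to 0.58, edgeR adjusted p = 0.252) and thk1-iso17 one of -0.34 (95% interval -0.66 to -0.01, edgeR adjusted p = 0.146). Neither passed. Per total gene counts the thk1-iso17 value became 0.06 (edgeR adjusted p = 0.813), so its direction depends on the scaling.

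Between the alleles, nac128 differed by -0.59 on the log2 scale, thk1-iso17 being the lower (95% interval -0.92 to -0.27, edgeR adjusted p = 0.316). The adjusted value did not pass, and it ranged from 0.0163 to 0.873 over 19 alternatives. DESeq2 gave the value of 0.0163 and was the only one of these alternatives to call it. The edgeR test called 0 of the 5 members between the alleles, against 0.111% of all genes tested. An unadjusted p under 0.05 was found for 2 members, nac128 and opaque11, and for 1618 of all 23529 genes tested. With TMM factors, all thk1-iso17 libraries lay below all thk1-iso15 libraries in 3 of 5 members (nac128, nac130 and opaque11), against 5.59% of all genes. Per total gene counts this held for nac128 alone (at most 411 against at least 464 CPM). On that scale the alleles overlapped in nac130 (999 to 1241 against 1049 to 1293 CPM) and opaque11 (90.2 to 130 against 122 to 158 CPM). The share of all genes was not computed on that scale. For nac130 the difference was -0.26 (95% interval -0.59 to 0.07, edgeR adjusted p = 0.789).

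The ratio of nac128 to nac130 within a library does not depend on library scaling. It was 0.206, 0.257 and 0.334 in WT replicates 1, 2 and 3. In thk1-iso15 it was 0.469, 0.437 and 0.443, above all of WT. In thk1-iso17 it was 0.385, 0.367 and 0.321, with replicate 3 below WT replicate 3 and the other 2 above WT. The mean log2 ratio was 0.62 higher in the 6 mutant libraries than in WT (two-sided exact permutation p = 0.0476, or 0.159 adjusted over 10 pairs of members). The difference did not pass the adjustment, which 1 pair alone cannot pass with these numbers of libraries. Nearly identical stretches of paralogues can lose reads that align to both, and how such reads were handled is not given in the sources used here.

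The DOF factor gene pbf1 stood at 283, 283 and 260 CPM in WT replicates 1, 2 and 3. In thk1-iso15 it stood at 135, 167 and 279 CPM. The thk1-iso17 libraries stood at 180, 209 and 202 CPM. The first 2 thk1-iso15 libraries were the lowest of all 9 and the third was at the WT level, so the groups overlap there, while all of thk1-iso17 lay below WT. Means in the same order were 275 ± 13.3, 193 ± 75.6 and 197 ± 15.02 CPM (SD, n = 3 each). Against WT, thk1-iso15 had a log2 fold change of -0.51 (95% interval -1.01 to -0.01, edgeR adjusted p = 0.148) and thk1-iso17 one of -0.48 (95% interval -0.98 to 0.02, edgeR adjusted p = 0.177). For both alleles combined it was -0.50 (95% interval -0.92 to -0.07, edgeR adjusted p = 0.0898). None of these passed.

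Leaving out thk1-iso15 replicate 3 brought pbf1 past the threshold in all 3 comparisons with WT. It then had a log2 fold change of -0.87 for thk1-iso15, -0.48 for thk1-iso17 and -0.68 for both combined (edgeR adjusted p = 0.00782, 0.0386 and 0.00514). Leaving out replicate 1 of thk1-iso15 moved its value the other way, to -0.31 (edgeR adjusted p = 0.386). Replicate 3 had the lowest share of entries in genes and the highest share not uniquely aligned. The part of these measures in its pbf1 level was not tested. Per total gene counts and with all libraries, pbf1 had -0.27 for thk1-iso15 and -0.07 for thk1-iso17 on the log2 scale (edgeR adjusted p = 0.367 and 0.811). Between the alleles pbf1 differed by 0.03 (95% interval -0.47 to 0.53, edgeR adjusted p = 0.992), an interval that leaves room for changes of up to 1.44-fold upward.

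The bZIP factor gene opaque2 stood at 487, 632 and 458 CPM in WT replicates 1, 2 and 3. In thk1-iso15 it stood at 684, 743 and 467 CPM. The thk1-iso17 libraries stood at 473, 594 and 534 CPM. The 2 highest libraries were thk1-iso15 replicates 1 and 2, and the groups overlap throughout. Means in the same order were 526 ± 93.2, 632 ± 145 and 534 ± 60.8 CPM (SD, n = 3 each). Against WT, thk1-iso15 had a log2 fold change of 0.26 (95% interval -0.18 to 0.71, edgeR adjusted p = 0.395) and thk1-iso17 one of 0.02 (95% interval -0.42 to 0.47, edgeR adjusted p = 0.957). With 1 library left out, the thk1-iso15 value ran from 0.13 (without its replicate 2) to 0.44 (without its replicate 3), and no call was made. The thk1-iso17 interval runs from 0.746 to 1.38 of the WT level, and changes of that size cannot be told from none with these libraries. Per total gene counts, 5 of 6 mutant libraries exceeded the highest WT library. The log2 fold changes on that scale were 0.55 and 0.44 (edgeR adjusted p = 0.0836 and 0.137).

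**Figure D3:**
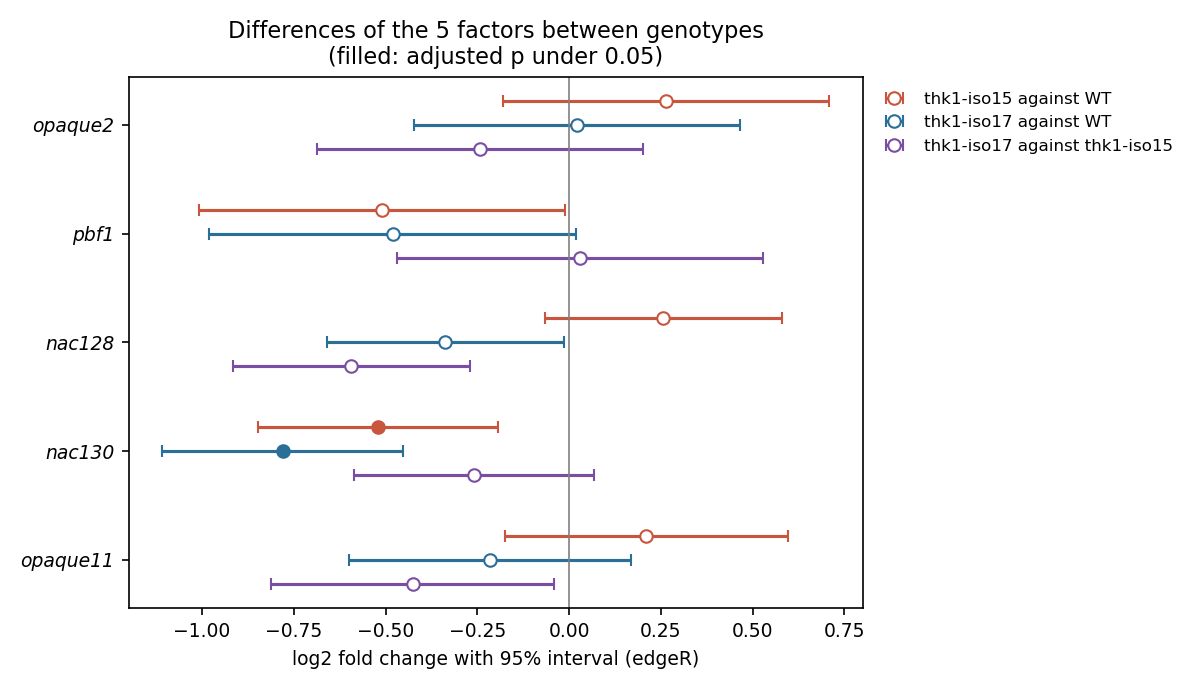
Log2 fold changes of the 5 factors (x axis) with 95% intervals from the edgeR fit, for each allele against WT and for thk1-iso17 against thk1-iso15. Filled points passed an adjusted p of 0.05. The 2 filled points are nac130 in thk1-iso15 at -0.52 and in thk1-iso17 at -0.78.

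The bHLH factor gene opaque11 stood at 109, 124 and 108 CPM in WT replicates 1, 2 and 3. In thk1-iso15 it stood at 115, 152 and 129 CPM. The thk1-iso17 libraries stood at 111, 109 and 74.4 CPM. The lowest value of all 9 libraries came from thk1-iso17 replicate 3, while the other 2 libraries of that allele were within the WT range. Means in the same order were 114 ± 8.95, 132 ± 18.7 and 98.1 ± 20.5 CPM (SD, n = 3 each). Against WT, thk1-iso15 had a log2 fold change of 0.21 (95% interval -0.17 to 0.60, edgeR adjusted p = 0.437) and thk1-iso17 one of -0.22 (95% interval -0.60 to 0.17, edgeR adjusted p = 0.437). Without thk1-iso17 replicate 3, the thk1-iso17 value was -0.06 (edgeR adjusted p = 0.829), and per total gene counts it was 0.19 (edgeR adjusted p = 0.430). Between the alleles the difference was -0.43 (95% interval -0.81 to -0.04, edgeR adjusted p = 0.686).

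For both alleles combined, the log2 fold change was 0.14 for opaque2, -0.04 for nac128 and -0.0024 for opaque11 (edgeR adjusted p = 0.591, 0.847 and 0.993), and the last 2 changed sign when scaled by total gene counts. With TMM factors, 3 of 5 members (pbf1, nac128 and nac130) had all thk1-iso17 libraries below all of WT, against 17.4% of all genes tested. In thk1-iso15 this held for nac130 alone, against 18.5% of all genes. Per total gene counts, nac130 alone stayed below WT in thk1-iso17, and the share of all genes was not computed. On that scale thk1-iso17 overlapped WT in pbf1 (212 to 245 against 222 to 244 CPM) and nac128 (366 to 411 against 320 to 468 CPM). Spread between replicates differed among the members. The coefficient of variation, pooled over the 3 genotypes, was 7.05% for nac130, 9.70% for nac128, 15.3% for opaque11, 18.0% for opaque2 and 23.2% for pbf1. The median was 14.05% over the 881 genes with a mean CPM at least that of opaque11. Most of the spread of pbf1 came from thk1-iso15, where it was 39.1%, against 4.82% in WT and 7.61% in thk1-iso17.

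The 10 ratios between members were compared within libraries, mutants against WT, and 0 passed after adjustment, with 3 at an unadjusted p under 0.05. All 3 contain nac130, so they are not independent of each other or of its fall. With 6 libraries against 3, the smallest two-sided exact permutation p is 0.0238. A pair at that value cannot pass the adjustment over 10 pairs unless several other pairs have low p-values as well. The count of 0 therefore does not show that the ratios were alike. The ratio of opaque2 to nac130 reached the smallest p. It was 0.271, 0.378 and 0.303 in WT replicates 1, 2 and 3. The thk1-iso15 libraries had 0.608, 0.599 and 0.421, and those of thk1-iso17 had 0.519, 0.614 and 0.522. The 6 mutant values exceeded the 3 of WT without overlap, and the mean log2 ratio was 0.79 higher (two-sided exact permutation p = 0.0238, or 0.159 adjusted over 10 pairs).

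The ratio of opaque2 to pbf1 set the libraries of thk1-iso15 apart from each other. It was 5.08 and 4.46 in replicates 1 and 2 but 1.68 in replicate 3, against 1.72, 2.23 and 1.76 in WT. In thk1-iso17 it was 2.62, 2.84 and 2.64, above all of WT. Over the 6 mutant libraries the mean log2 ratio was 0.67 higher than in WT (two-sided exact permutation p = 0.0952, or 0.238 adjusted over 10 pairs). Replicate 3 of thk1-iso15 thus held opaque2 and pbf1 in nearly the proportion seen in WT, but nac128 and nac130 in the proportion of its own group. The log2 ratio of nac130 to opaque11 differed by -0.63, mutants minus WT (two-sided exact permutation p = 0.0476, or 0.159 adjusted), with thk1-iso17 replicate 3 at 13.8, inside the WT range of 13.5 to 16.5. The other 5 mutant libraries lay between 8.17 and 9.81.

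**Figure D4:**
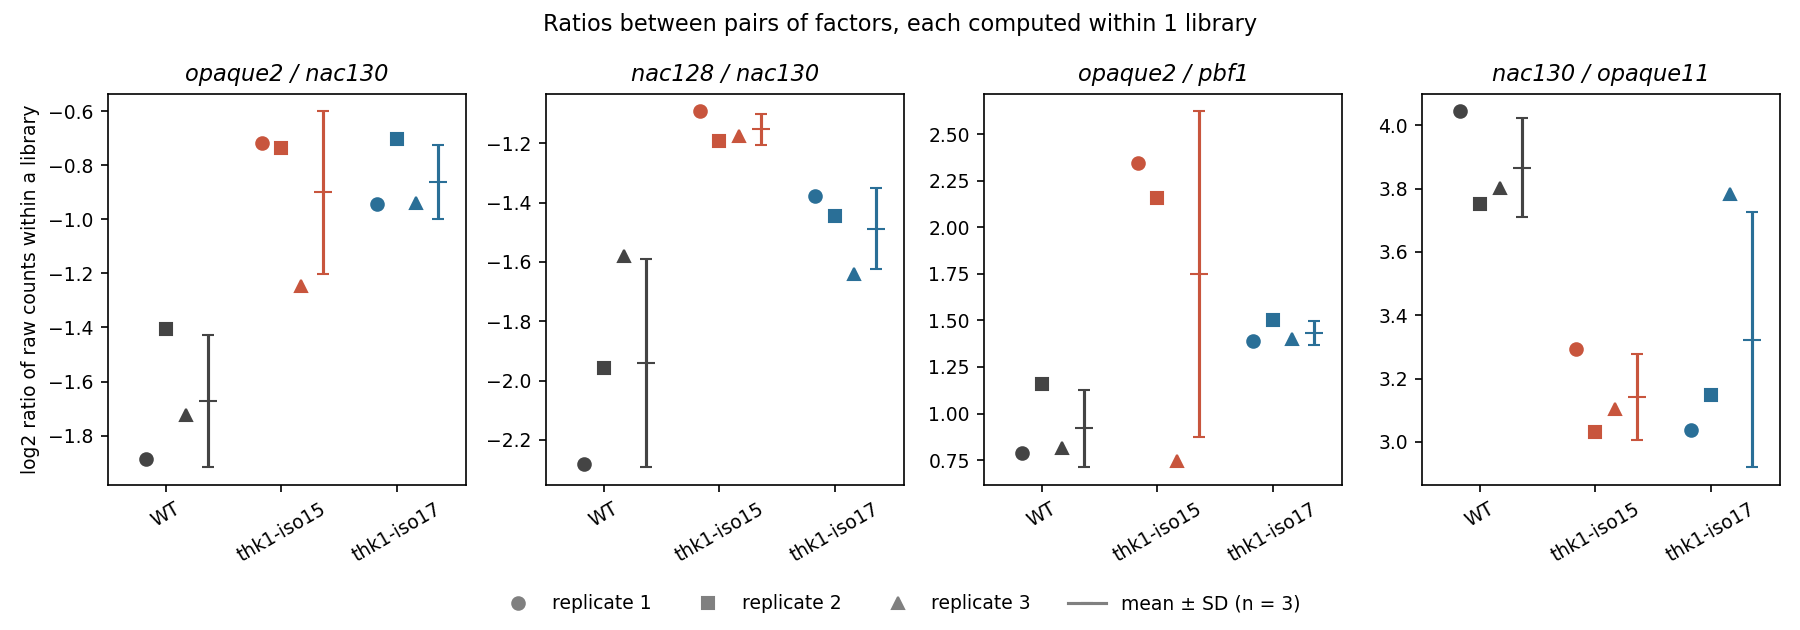
Log2 ratios of raw counts (y axis) between 4 pairs of factors, each computed within a library and so free of library scaling. Points are libraries and bars are the mean ± SD of 3 libraries. For opaque2 over nac130 all 6 mutant libraries lie above WT, while for opaque2 over pbf1 thk1-iso15 replicate 3 stands at 0.75, just under the lowest WT library at 0.79.

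Across the 6 mutant libraries, 0 of 10 pairs of members were correlated after adjustment. With TMM factors the alleles do not overlap in nac128, nac130 and opaque11, so no pooled correlation is given for pairs with these genes. For opaque2 and pbf1, Pearson's r was -0.70 and Spearman's rho -0.71 (exact permutation p = 0.111 and 0.136, or 0.370 and 0.340 adjusted over 10 pairs). Without the 2 libraries farthest from the median of opaque2, r was -0.26, so the value rests on those libraries.

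Other genes were ranked by how closely their log2 level followed each factor over the 9 libraries, as a description, among 14661 genes with a mean of at least 5 CPM in a genotype. For nac130, 34 genes reached a Pearson r of at least 0.95 and 34 reached -0.95 or lower. The closest was Zm00001d021701 with r of 0.985, with 44.5 ± 2.83 CPM for WT, 32.003 ± 2.19 for thk1-iso15 and 28.1 ± 0.969 for thk1-iso17 (SD, n = 3 each). Its log2 fold change for both alleles combined was -0.57 (edgeR adjusted p = 0.00430). It was picked for following nac130 over these same libraries, so this value is no separate support for the fall of nac130. For pbf1, 10 genes reached 0.95, led by Zm00001d002174 at 0.981, and 3 reached -0.95 or lower. For nac128, 1 gene reached 0.95, Zm00001d015300 at 0.955, and 0 reached -0.95 or lower. For opaque2, 0 genes reached 0.95 and 1 reached -0.95 or lower. The highest r for opaque2 was 0.935, for Zm00001d007657. For opaque11, 2 genes reached 0.95 and 2 reached -0.95 or lower. The libraries share genotype, scaling and depth, and the tables used here give none of these identifiers a name.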

How the data were processed

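The deposited values are raw read counts per gene in 9 libraries, with 5 summary lines that name no gene. Those lines entered neither library sizes nor tests, and made up the rest where genes took 52.9% to 66.5% of entries. Poly(A) RNA was sequenced as paired ends, per the labels' protocols. The genome build was B73 RefGen_v4, per the submitters' processing notes, which list as tools HTSeq 0.11.1, StringTie 1.3.6, HISAT2 2.1.0 and SAMtools 1.9. The annotation, the settings of these tools and any use of strand were not stated there, so reads of overlapping, antisense or near-identical genes are uncertain.

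The tests used edgeR 4.0.16 in R 4.3.3: filterByExpr, TMM factors, and 1 quasi-likelihood fit of 3 groups over all 9 libraries, without a block. P-values were adjusted by Benjamini-Hochberg over all 23529 genes tested, with a threshold of 0.05. Standard errors were derived from the log2 fold change and its F statistic, and 95% intervals use the fit's degrees of freedom. The code was tested on simulated data. Alternatives used DESeq2 1.42.0, voom in limma 3.58.1, other scalings, filters and groups, a replicate block, and 1 library left out. Ratios and correlations used two-sided exact permutation tests.

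All 5 members are named throughout. For likeness, the closest gene by Pearson r of log2(CPM + 0.5) is named for each of opaque2, pbf1, nac128 and nac130. The limit on such identifiers (2 that rose, 2 that fell) was read, after the values were seen, as counting only genes that passed the test. The members and lists were chosen with earlier results of these data known. Of 88 symbols in 8 lists (other storage regulators, zein targets, starch and sugar targets, aleurone, basal transfer layer, embryo-surrounding region, embryo, pericarp), 59 were in a RefSeq table of Zm-B73-REFERENCE-NAM-5.0 and 0 were paired there with an identifier of the count tables. Those genes, the markers of other cell types and thk1 itself are therefore not analysed here, and sequences and coordinates are not used here.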

Additional observations from a re-analysis of the deposited data

Results flagged for a closer look

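For nac128, all 3 thk1-iso15 libraries lay above the WT mean and all 3 thk1-iso17 libraries below it. The direct difference between the alleles was -0.59 on the log2 scale, and the edgeR test did not pass (adjusted p = 0.316). The same holds for opaque11, with a difference of -0.43 (edgeR adjusted p = 0.686), which became -0.26 without thk1-iso17 replicate 3 (edgeR adjusted p = 0.665). Here thk1-iso15 replicate 1 stood at 114.7 CPM against a WT mean of 113.9. Replicates 1 and 2 of thk1-iso17 were within the WT range of opaque11. Both genes were flagged because the alleles lay on opposite sides of the WT mean. The share of all genes with that pattern was not computed. Per total gene counts the thk1-iso17 means of both genes lie above WT, so the opposite sides depend on the scaling.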

How the results depend on the processing

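With 1 library left out, members called ranged from 0 to 1 in thk1-iso15 against WT, from 1 to 2 in thk1-iso17 against WT and for both alleles combined, and from 0 to 0 between the alleles. In thk1-iso15 the member called was nac130 in 2 of these 9 fits, and pbf1 in the fit without thk1-iso15 replicate 3. In thk1-iso15 the count of 1 became 0 with upper quartile factors, library totals, no filter, or only the groups compared. In thk1-iso17 it became 0 with library totals and 2 with only the groups compared, where pbf1 joined. For both alleles combined it became 0 with library totals. Between the alleles DESeq2 called 1 (nac128). Pairs whose ratio differed, and correlated pairs, numbered 0 in all alternatives. This does not show stability, since the smallest p of a ratio is 0.0714 with 6 libraries against 2 and 0.0357 with 5 against 3, before adjustment over 10 pairs, and 4 libraries cannot bring a correlation under 0.05.

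Over 375 values of single members, 340 kept direction and side of the threshold, 13 lost a call (all nac130), 5 gained one and 17 changed sign, none of them called. With library totals nac128 became 0.064 in thk1-iso17 and 0.29 for both combined, and opaque11 0.19 and 0.33. For both combined opaque11 also became 0.031 with upper quartile factors and 0.013 with the filter of 1 CPM in 3 libraries. With single libraries left out, signs changed in 4 results. For both alleles combined, nac128 ran from -0.15 to 0.079 (positive without WT replicate 3) and opaque11 from -0.059 to 0.074 (positive without WT replicate 2, thk1-iso15 replicate 1 or 3, or thk1-iso17 replicate 3). In thk1-iso17, opaque2 ran from -0.070 to 0.18 (negative without WT replicate 1 or 3, or its own replicate 2). Between the alleles, pbf1 ran from -0.18 to 0.39 (negative without thk1-iso15 replicate 1 or 2, or replicate 2 of thk1-iso17). The cause was not tested.

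Replicate numbers did not meet the rule for pairing (every same-numbered correlation over 0.1). Deviations of same-numbered libraries correlated between -0.152 and 0.288 (mean 0.0903). Those of different numbers had a mean of -0.0452, which is no separate result, since deviations were taken from the mean of each genotype. The closest of 3 libraries had the same number in 9 of 18 checks. With the replicate block the same member, nac130, was called in thk1-iso15 (edgeR adjusted p = 0.0390), thk1-iso17 (0.0111) and both combined (0.00788), 1 each, and 0 between the alleles.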
